A study of Mus musculus with 9 samples.

Results

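The genes described here are 9 parts of the insulin-like growth factor (IGF) system: the ligand gene Igf1, the receptor genes Igf1r and Insr, and the binding-protein genes Igfbp2, Igfbp3, Igfbp4, Igfbp5, Igfbp6 and Igfbp7. They were picked by gene symbol, with their values in these libraries already known, so their levels and fold changes are given as a description and without p-values. All 9 were found by their Ensembl identifiers among the 55704 genes of the table, and all 9 passed the filter on low values (0.1 or more in mean FPKM over the libraries), which 20207 genes passed. FPKM is the number of sequenced fragments of a gene, scaled for the length of the gene and the size of the library.

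The study asked how BMP4, with or without bFGF, changes adult neural stem cells (NSCs) in culture, and measured RNA in bulk in 3 groups of 3 libraries. NSCs came from the subventricular zone of wild-type C57BL/6 mice aged 8 to 9 weeks, with 2 female and 2 male mice pooled for an isolation. They were used after at least 3 passages and left to attach for 16 to 18 h on poly-L-ornithine and laminin. bFGF/EGF-treated NSCs were the proliferating control, taken at day 0 with bFGF and EGF at 20 ng/mL each. bFGF/BMP4-treated NSCs were taken at day 6 with bFGF and BMP4 at 20 ng/mL each, and BMP4-treated NSCs at day 6 with BMP4 alone at 20 ng/mL. The control was not kept for 6 days, so in the comparisons with it the growth factors and the time in culture cannot be told apart, whereas both BMP4 groups were of the same age. The proliferation medium held B27 without vitamin A and the media at day 6 are described as holding B27. B27 is a supplement that contains insulin, and its form cannot be told apart from the other differences between day 0 and day 6. Nothing in the sources used here says that the 3 libraries of a group came from separate isolations, so each error measures only the spread between these libraries.

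IGF1 and IGF2 are secreted peptides that act mainly through the receptor tyrosine kinase IGF1R and, in part, through the closely related insulin receptor, and from there through PI3K, AKT and mTOR on growth, survival and metabolism. Most IGF outside the cell is held by binding proteins (IGFBPs), which can keep the ligand away from its receptor, carry it or release it when a protease cuts them. In the brain, IGF signaling is known to act on the proliferation of neural stem and progenitor cells and on the differentiation of neurons and oligodendrocytes.

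The libraries held 15894930 to 17423260 fragments on genes. Correlations of log2 values were 0.950 to 0.964 within groups and at most 0.915 between groups. The NSC gene Sox2 was high in all groups, with a mean FPKM of 167 in the control and of 137 in each group at day 6. Nes, another NSC gene, was at 151 in the control, 3.55 with bFGF/BMP4 and 15.8 with BMP4. In the same order, Fabp7 was at 655, 272 and 484, Slc1a3 at 73.6, 130 and 113 and Prom1 at 0.66, 0.15 and 2.49. The 5 NSC markers summed to 968 to 1122 in the control, 491 to 571 with bFGF/BMP4 and 634 to 843 with BMP4. Summed over 6 astrocyte markers, FPKM was 165 to 233 in the bFGF/EGF, 514 to 573 in the bFGF/BMP4 and 3614 to 4506 in the BMP4 libraries, and the summed FPKM of 5 oligodendrocyte progenitor markers was 1563 to 2263, 1313 to 1796 and 216 to 423. The astrocyte sum in the BMP4 libraries was mostly Gfap (mean FPKM 0.093, 19.4 and 2566 in the control, bFGF/BMP4 and BMP4). Aqp4 was at 0.53, 212 and 778, Aldoc at 53.0, 209 and 498 and Gja1 at 2.03, 24.5 and 78.0, in the same order of groups. Aldh1l1 was at 135, 24.2 and 58.1 and S100b at 0.62, 55.1 and 40.1, each in another order. The progenitor sum was nearly all Olig1 (1352, 1254 and 275) and Olig2 (565, 246 and 31.7). Cspg4 was at 13.2, 3.77 and 3.27, Pdgfra at 0.77, 0.13 and 0.12 and Sox10 at 0.60, 0 and 0. Markers of neurons and neuroblasts summed to 72.4 to 88.1 in the control, 47.4 to 53.2 with bFGF/BMP4 and 142 to 213 with BMP4. Tubb3, highest in the last, was at 20.3, 17.0 and 145 and Snap25 at 2.60, 1.20 and 4.38. Map2 was at 56.2, 30.5 and 34.1 and Rbfox3 at 0.99, 1.57 and 0.52, both lower with BMP4 than in the control. Dcx was at 0.19, 0.12 and 0.90 and Stmn2 at 0.080, 0.012 and 0.11. Ependymal markers summed to 6.34 to 11.1, 9.94 to 10.9 and 54.8 to 64.9, mostly Foxj1. These sums differed between the groups, and their part in the results on the IGF genes was not tested.

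Igfbp2 and Igfbp3 were among the most abundant transcripts of the control and of bFGF/BMP4-treated NSCs, and both were much lower in BMP4-treated NSCs. Igfbp2 encodes a secreted carrier of IGF1 and IGF2 with an integrin-binding RGD motif. Its FPKM was 686, 905 and 636 in the bFGF/EGF libraries, 1533, 1915 and 2041 in the bFGF/BMP4 libraries and 49.4, 137 and 126 in the BMP4 libraries. The 3 groups did not overlap, with bFGF/BMP4 highest and BMP4 lowest. By its group mean, Igfbp2 stood at rank 11 of all genes in bFGF/BMP4-treated NSCs (1829 ± 265 FPKM, SD, n = 3), at rank 20 in the control (742 ± 143) and at rank 366 in BMP4-treated NSCs (104 ± 47.8). The log2 fold change of log2(FPKM + 0.1) was -4.26 ± 0.35 (SE) for BMP4 against bFGF/BMP4, -2.95 ± 0.35 for BMP4 against bFGF/EGF and 1.31 ± 0.35 for bFGF/BMP4 against bFGF/EGF. Because the RNA was measured in bulk, fewer cells that express a gene and less of its RNA per cell cannot be told apart, here or for the other genes.

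Igfbp3, the gene of the main IGF carrier of serum, had an FPKM of 652, 872 and 653 in the bFGF/EGF libraries, 860.4, 1207 and 1243 in the bFGF/BMP4 libraries and 86.0, 179 and 169.7 in the BMP4 libraries. The BMP4 libraries lay below all others, while the lowest bFGF/BMP4 library lay inside the range of the control. Igfbp3 was at rank 21 in the control, rank 18 in bFGF/BMP4-treated NSCs and rank 226 in BMP4-treated NSCs. Its log2 fold change was -2.98 ± 0.29 for BMP4 against bFGF/BMP4, -2.38 ± 0.29 for BMP4 against bFGF/EGF and 0.60 ± 0.29 for bFGF/BMP4 against bFGF/EGF. Of all pairs among the 9 genes, Igfbp2 and Igfbp3 had the most alike patterns, with a root mean square difference of 0.53 between their log2 values across the 9 libraries, each gene centred on its own mean.

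Igfbp4 had the largest fall of the 9 genes. It encodes a binding protein that is known mostly as an inhibitor of IGF action and that the protease PAPP-A cuts. Its FPKM was 16.0, 18.9 and 15.2 in the bFGF/EGF libraries, 39.03, 38.97 and 46.7 in the bFGF/BMP4 libraries and 0.60, 0.64 and 0.54 in the BMP4 libraries. The groups did not overlap, and the spread within each was small. The BMP4 libraries held 39 to 46 fragments of Igfbp4 each, so the gene was still detected there. Its log2 fold change was -5.91 ± 0.13 for BMP4 against bFGF/BMP4, -4.60 ± 0.13 for BMP4 against bFGF/EGF and 1.31 ± 0.13 for bFGF/BMP4 against bFGF/EGF. Adding 1 in place of 0.1 to the FPKM brought the fall against bFGF/BMP4 to -4.74.

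The remaining binding proteins were highest in BMP4-treated NSCs. Igfbp5 encodes a binding protein that attaches to extracellular matrix. Its FPKM was 2.49, 2.46 and 1.42 in the bFGF/EGF libraries, 3.29, 1.70 and 2.22 in the bFGF/BMP4 libraries and 42.0, 14.9 and 24.5 in the BMP4 libraries. The control and bFGF/BMP4 ranges overlapped, and every BMP4 library was above both. The BMP4 libraries differed among themselves by more than for any of the other genes on the FPKM scale relative to the mean, at 27.2 ± 13.8 FPKM. In log2, Igfbp5 differed by 3.37 ± 0.38 for BMP4 against bFGF/BMP4, 3.53 ± 0.38 for BMP4 against bFGF/EGF and 0.16 ± 0.38 for bFGF/BMP4 against bFGF/EGF. This last value lay between -0.09 and 0.37 when single libraries were left out.

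Igfbp7 encodes a relative of the binding proteins with low affinity for IGFs, also found in the matrix of vessels. Its FPKM was 3.11, 4.03 and 2.39 in the bFGF/EGF libraries, 0.98, 1.24 and 1.46 in the bFGF/BMP4 libraries and 18.1, 18.0 and 20.0 in the BMP4 libraries. No ranges overlapped, and bFGF/BMP4-treated NSCs were the lowest group, in contrast to Igfbp5. On the log2 scale Igfbp7 differed by 3.84 ± 0.20 for BMP4 against bFGF/BMP4, 2.55 ± 0.20 for BMP4 against bFGF/EGF and -1.29 ± 0.20 for bFGF/BMP4 against bFGF/EGF. Igfbp7 overlaps Polr2b on the other strand, and whether the counting used strand is not given in the sources used here. Polr2b, the gene of an RNA polymerase II subunit, had a mean FPKM of 31.7 in the control, 21.4 with bFGF/BMP4 and 22.01 with BMP4. Of 6 endothelial markers, Cldn5 had no fragment in any library and Cdh5 had none in the BMP4 libraries. Kdr was the highest in the BMP4 libraries, at a mean FPKM of 0.15, 1.18 and 3.31 in the control, bFGF/BMP4 and BMP4. Pecam1 was at 0.017, 0.23 and 0.043, and Flt1 and Tek were at most 0.066 in any group. The part of such cells in the level of Igfbp7 was not tested.

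Igfbp6, which encodes a binding protein that prefers IGF2, was close to the limit of detection. The bFGF/EGF libraries held 1, 3 and 2 fragments of it, the bFGF/BMP4 libraries 11, 7 and 1, and the BMP4 libraries 13, 13 and 12. Its FPKM was accordingly 0.05, 0.17 and 0.10, then 0.62, 0.41 and 0.06, then 0.72, 0.72 and 0.65. The BMP4 libraries lay above all others, and the bFGF/BMP4 libraries reached from inside the range of the control nearly to the BMP4 group. The summed fragments, scaled for the libraries, were 6.54 times those of the control in BMP4-treated NSCs (95% exact interval 2.74 to 18.9) and 1.89 times those of bFGF/BMP4-treated NSCs (1.06 to 3.46), intervals that cover counting error only. The log2 fold change against the control, on the scale with 0.1 added, was 1.98 ± 0.52.

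**Figure D1:**
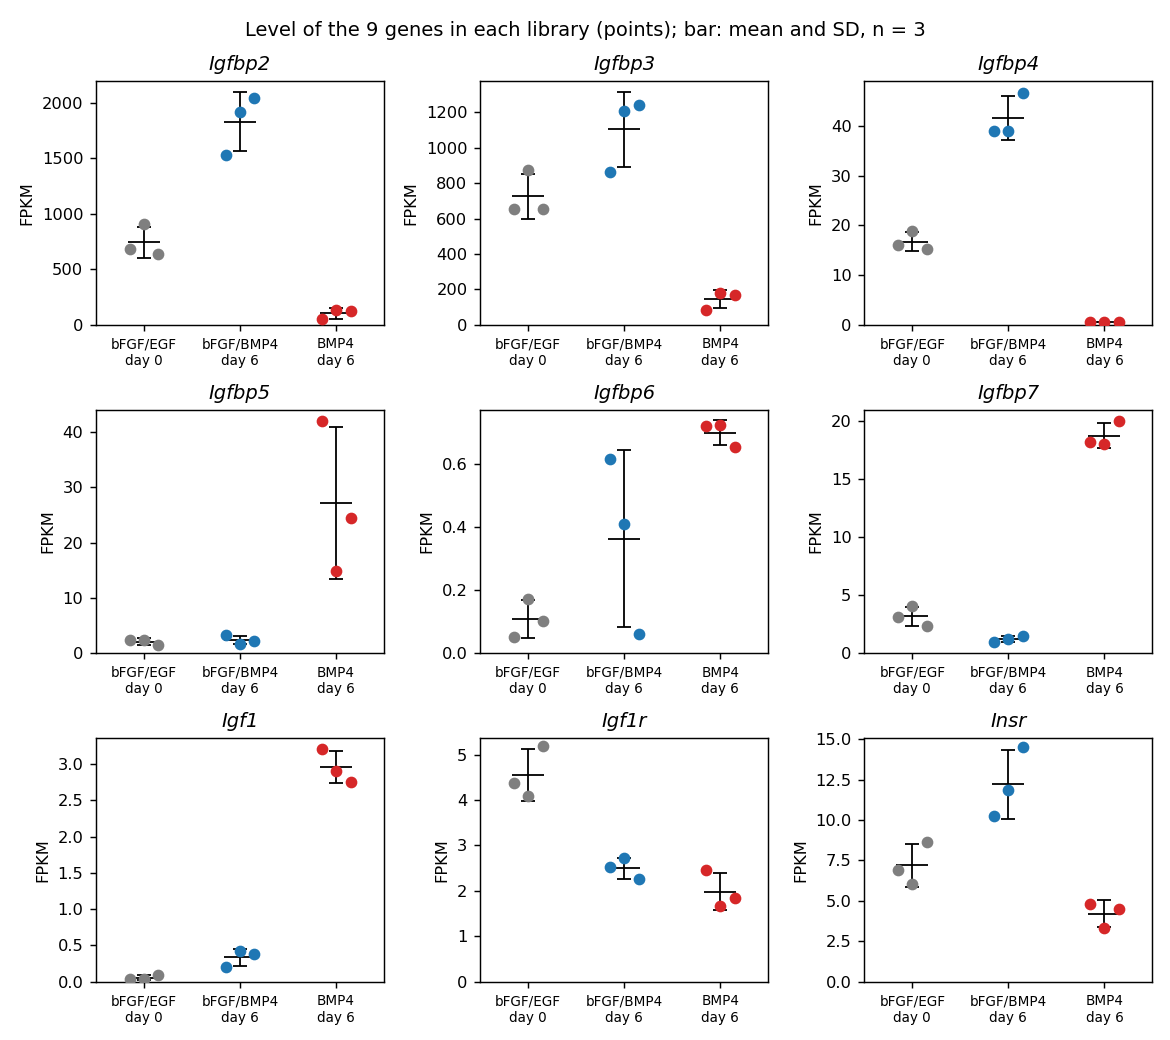
FPKM of the 9 genes in each library (points, 3 per group), with the group mean and SD as a bar. Each panel has its own linear axis starting at 0. The BMP4 points lie below all others for Igfbp2, Igfbp3, Igfbp4 and Insr and above all others for Igfbp5, Igfbp6, Igfbp7 and Igf1.

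Igfbp2 and Igfbp5 are neighbours. On GRCm39, Igfbp2 lies on chromosome 1 from 72863606 to 72891634 on the plus strand and Igfbp5 from 72897091 to 72914043 on the minus strand, so that their 3′ ends face each other with 5456 bases between them. Igfbp2 was 17.6 times lower in mean FPKM in BMP4- than in bFGF/BMP4-treated NSCs, and Igfbp5 was 11.3 times higher. Igfbp3 (chromosome 11, 7156086 to 7164179, minus strand) also has a binding-protein gene beside it, Igfbp1 at a distance of 3539 bases. Igfbp1 had 20 fragments over all 9 libraries and was below the filter, next to a gene with at least 4372 fragments in each library. The other genes are on chromosome 11 (Igfbp4, 98932064 to 98945218, plus), chromosome 15 (Igfbp6, 102052697 to 102057953, plus), chromosome 5 (Igfbp7, 77493130 to 77555931, minus), chromosome 10 (Igf1, 87693642 to 87772904, plus), chromosome 7 (Igf1r, 67601518 to 67883416, plus) and chromosome 8 (Insr, 3172061 to 3329647, minus).

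The start regions of the binding-protein genes that differed most in opposite directions are shown as RefSeq windows of 300 bases, from 250 before to 50 after the start, taken from a GRCm38.p6 table and placed on GRCm39 by exact match. Windows were found for 8 of the 9 genes, 9 windows in all. Igfbp2 and Igfbp4 were lowest in BMP4-treated NSCs, and Igfbp5 and Igfbp7 were highest there. Capitals mark matches on either strand to the GC box motif, GGGCGG, to the E-box motif, CACGTG, or to the TATA box motif, which is TATAAA. The SMAD motif, GGCGCC, the motif for AP-1, TGANTCA, and that for ETS factors, CCGGAAG, were searched as well, and no matches overlapped in these windows.
Igfbp2 (chr1:72863389-72863688, plus): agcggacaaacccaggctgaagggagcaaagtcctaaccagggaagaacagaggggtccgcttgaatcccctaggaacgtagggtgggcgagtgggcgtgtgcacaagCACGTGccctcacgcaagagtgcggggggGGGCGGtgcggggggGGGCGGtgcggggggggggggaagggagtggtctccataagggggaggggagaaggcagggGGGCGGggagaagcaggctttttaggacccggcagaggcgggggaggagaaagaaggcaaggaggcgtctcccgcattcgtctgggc
Igfbp4 (chr11:98931820-98932119, plus): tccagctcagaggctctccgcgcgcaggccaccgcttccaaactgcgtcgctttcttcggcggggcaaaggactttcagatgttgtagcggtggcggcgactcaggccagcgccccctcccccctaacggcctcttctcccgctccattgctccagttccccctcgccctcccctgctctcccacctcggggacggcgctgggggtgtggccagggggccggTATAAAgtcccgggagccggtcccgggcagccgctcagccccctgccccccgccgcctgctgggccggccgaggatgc
Igfbp5 (chr1:72913975-72914274, minus): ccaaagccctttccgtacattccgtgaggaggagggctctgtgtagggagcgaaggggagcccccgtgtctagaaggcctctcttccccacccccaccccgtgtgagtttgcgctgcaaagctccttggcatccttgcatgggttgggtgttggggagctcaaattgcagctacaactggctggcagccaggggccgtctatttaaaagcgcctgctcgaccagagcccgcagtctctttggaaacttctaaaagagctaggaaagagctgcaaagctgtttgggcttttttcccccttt
Igfbp7 (chr5:77555843-77556142, minus): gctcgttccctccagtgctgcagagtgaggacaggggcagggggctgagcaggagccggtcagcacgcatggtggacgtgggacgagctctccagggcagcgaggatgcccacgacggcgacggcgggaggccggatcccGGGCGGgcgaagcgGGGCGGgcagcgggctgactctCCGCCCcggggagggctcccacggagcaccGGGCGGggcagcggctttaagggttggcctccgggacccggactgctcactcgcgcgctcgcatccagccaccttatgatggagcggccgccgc

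The Igfbp2 window has 3 GC boxes and 1 E-box at 67.0% GC, and the Igfbp7 window has 4 GC boxes at 73.3% GC. The Igfbp4 window has 1 TATA box and no GC box at 71.3% GC, and the Igfbp5 window has none of the 6 motifs at 56.3% GC. Of the 9 windows, 3 hold GGGCGG, 2 TATAAA and 1 CACGTG. Of all 32851 RefSeq windows, 35.7% hold GGGCGG, 13.6% TATAAA and 7.15% CACGTG. A match describes the letters and not a bound site. The SMAD motif was found in 1 of the 9 windows, that of Igf1, against 11.9% of all windows. TGANTCA was found in 2 windows, that of Igf1 and a second window of Igfbp2, against 7.81% of all windows, and CCGGAAG in none, against 8.86%. The RefSeq start in the Igf1 window lies 3331 bases from the start of the gene at the coordinates given above. For the second window of Igfbp2 this distance is 940 bases.

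Igf1 was the only ligand gene of the list to pass the filter, at a low level. Its FPKM was 0.036, 0.038 and 0.091 in the bFGF/EGF libraries, 0.21, 0.42 and 0.38 in the bFGF/BMP4 libraries and 3.20, 2.91 and 2.76 in the BMP4 libraries. The 3 groups did not overlap, with BMP4 highest and the control lowest. In fragments, the libraries held 6, 6 and 16, then 33, 64 and 56, then 515, 467 and 451. The summed fragments in BMP4-treated NSCs, scaled for the libraries, were 52.8 times those of the control (95% exact interval 36.4 to 79.8) and 8.83 times those of bFGF/BMP4-treated NSCs (7.47 to 10.5), again for counting error only. With 0.1 added to the FPKM, the log2 fold change was 4.32 ± 0.30 against the control and 2.84 ± 0.30 against bFGF/BMP4, and bFGF/BMP4 was 1.48 ± 0.30 above the control. The added constant pulled these values down: limma-voom on the fragment numbers gave 5.70, 3.20 and 2.50.

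Igf1 is also made by microglia and vascular cells, so their markers are given beside it. In the BMP4 libraries the microglial genes C1qa and Aif1 had no fragment and Cx3cr1 and Csf1r at most 3 in a library, while Tmem119 had at most 55 fragments at a mean FPKM of 1.34. P2ry12 had at most 12 fragments in a BMP4 library and at most 34 in a control library. Its mean FPKM was 0.56 in the control, 0.15 with bFGF/BMP4 and 0.23 with BMP4. The 6 microglial markers summed to an FPKM of 0.41 to 0.88 in the bFGF/EGF, 0.41 to 0.54 in the bFGF/BMP4 and 1.49 to 1.74 in the BMP4 libraries, with Tmem119 at 0 in the control. The 6 mural markers summed to 3.24 to 4.21, 16.7 to 21.3 and 14.2 to 20.7, nearly all of it Notch3. Igf1 is overlapped on the other strand by the long noncoding RNA gene Igf1os, which had a mean FPKM of 0.016 in BMP4-treated NSCs and 0 in the other groups.

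The largest log2 fold change of either receptor gene was smaller in size than that of any of the other 7 genes. Igf1r, the IGF1 receptor, had an FPKM of 4.38, 4.09 and 5.19 in the bFGF/EGF libraries, 2.52, 2.72 and 2.26 in the bFGF/BMP4 libraries and 2.45, 1.66 and 1.85 in the BMP4 libraries. Both groups at day 6 were below the control and overlapped with each other. For Igf1r the log2 fold change was -1.17 ± 0.18 for BMP4 against bFGF/EGF, -0.84 ± 0.18 for bFGF/BMP4 against bFGF/EGF and -0.33 ± 0.18 for BMP4 against bFGF/BMP4.

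Insr, the insulin receptor, had an FPKM of 6.89, 6.04 and 8.66 in the bFGF/EGF libraries, 10.3, 11.9 and 14.5 in the bFGF/BMP4 libraries and 4.83, 3.31 and 4.52 in the BMP4 libraries. The groups did not overlap, with bFGF/BMP4 highest and BMP4 lowest, the same order as for Igfbp2 and Igfbp4 and not that of Igf1r. For Insr it was -1.52 ± 0.20 for BMP4 against bFGF/BMP4, -0.76 ± 0.20 for BMP4 against bFGF/EGF and 0.76 ± 0.20 for bFGF/BMP4 against bFGF/EGF. Insr exceeded Igf1r in every library per kilobase of gene. The ratio of their FPKM was 1.48 to 1.67 in the control, 4.07 to 6.42 in bFGF/BMP4-treated NSCs and 1.97 to 2.45 in BMP4-treated NSCs, so that the group ranges stood apart and bFGF/BMP4 was highest.

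**Figure D2:**
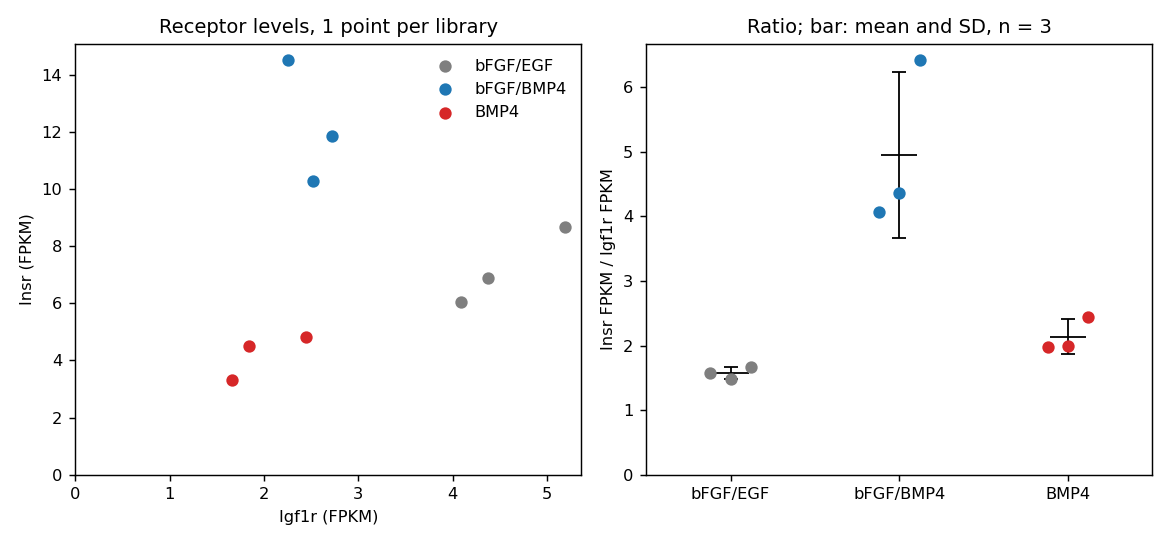
Left, FPKM of Insr against FPKM of Igf1r, 1 point per library. Right, the ratio of Insr to Igf1r FPKM per library with the group mean and SD as a bar. The control had a ratio of 1.57 ± 0.10, against 4.95 ± 1.28 with bFGF/BMP4 and 2.14 ± 0.27 with BMP4 (n = 3 each).

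In counts past the study's threshold (a difference of 2-fold or more with an adjusted p up to 0.05), 7 of the 9 genes passed in BMP4 against bFGF/BMP4, against 13.5% of all genes tested. Higher were Igfbp5, Igfbp7 and Igf1, 3 of 9 against 8.41% of all genes, and lower were Igfbp2, Igfbp3, Igfbp4 and Insr, 4 of 9 against 5.14%. Between BMP4 and bFGF/EGF, 8 of the 9 were past the threshold against 36.6% of all genes. Those higher were Igfbp5, Igfbp6, Igfbp7 and Igf1, 4 of 9 against 21.3%, and those lower were Igfbp2, Igfbp3, Igfbp4 and Igf1r, 4 of 9 against 15.4%. Between bFGF/BMP4 and bFGF/EGF, 4 of the 9 were past it against 30.6% of all genes, with Igfbp2, Igfbp4 and Igf1 higher, 3 of 9 against 16.5%, and Igfbp7 lower, 1 of 9 against 14.1%. Since the genes were chosen with these values known, nothing is read from the shares.

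Median log2 fold changes of the 9 genes were -0.33, -0.76 and 0.76 in these 3 comparisons, beside 0.00, 0.10 and 0.06 for all genes tested. The comparisons with bFGF/EGF share the control libraries, and the others share the bFGF/BMP4 or the BMP4 libraries, so they are not independent. Adding 1 to the FPKM took Igfbp6 and Igf1r below the threshold between BMP4 and bFGF/EGF, and Igfbp7 and Igf1 between bFGF/BMP4 and bFGF/EGF. Quantile normalization took Igfbp2 below it between bFGF/BMP4 and bFGF/EGF, with a log2 fold change of 0.87, and so did an adjusted p of at most 0.01 in place of 0.05. Without bFGF/BMP4 replicate 3, which had 1 fragment of Igfbp6, Igfbp6 passed the threshold between bFGF/BMP4 and bFGF/EGF, with a log2 fold change of 1.57, and the value between BMP4 and bFGF/BMP4 was 0.40 in place of 1.04.

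**Figure D3:**
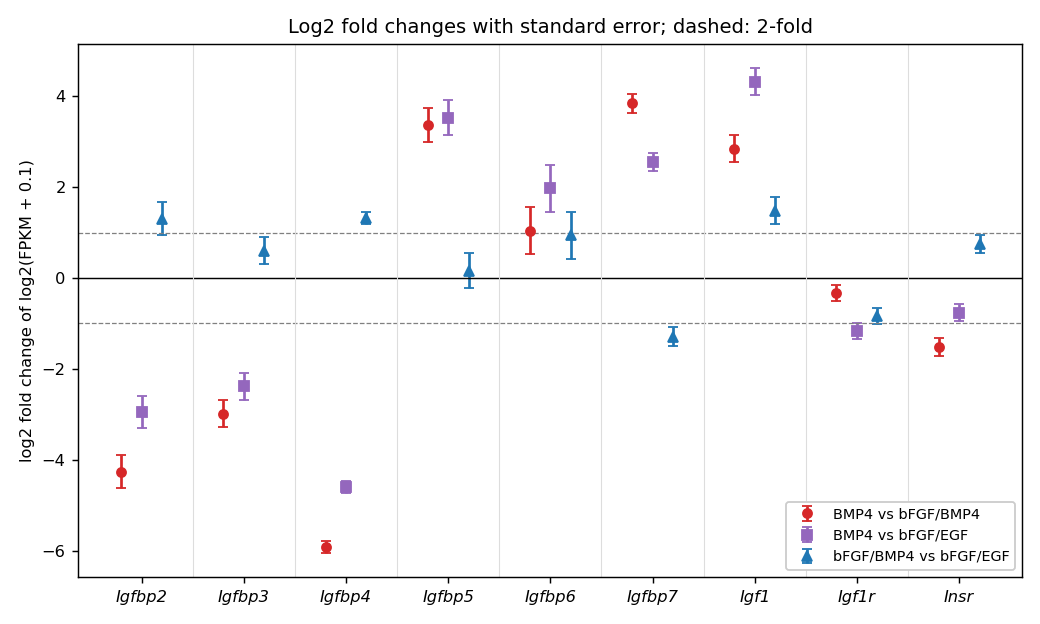
Log2 fold change of log2(FPKM + 0.1) of each gene in the 3 comparisons, with the standard error of the fit as a bar and dashed lines at a 2-fold change. Igfbp4 was lowest at -5.91 for BMP4 against bFGF/BMP4, and Igf1 was highest at 4.32 for BMP4 against bFGF/EGF.

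As a pool, the RNA of the 6 binding proteins was largest with bFGF/BMP4 and smallest with BMP4 alone. Their summed FPKM was 1308 to 1803 in the bFGF/EGF libraries, 2437 to 3334 in the bFGF/BMP4 libraries and 197 to 351 in the BMP4 libraries. Igfbp2 and Igfbp3 made up nearly all of it in the control (49.8% ± 1.00 and 48.7% ± 1.04 of the sum) and in bFGF/BMP4-treated NSCs (61.5% ± 1.23 and 36.9% ± 1.46). In BMP4-treated NSCs they made up 33.7% ± 7.54 and 48.2% ± 3.94. Igfbp5 took 10.9% ± 9.14 and Igfbp7 6.74% ± 2.17 there, beside 0.143% and 0.212% in the control and 0.0851% and 0.0411% in bFGF/BMP4-treated NSCs. The share of Igfbp4 was 1.13%, 1.41% and 0.215%.

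These shares depend on the gene lengths behind the FPKM. For Igfbp7 the values imply a length of 1209 bases, against 5449 bases of exon in GENCODE vM39, and with the latter lengths its share in BMP4-treated NSCs was 1.76%. Without any length, Igfbp5 took 21.6% and Igfbp7 2.79% of the fragments of the 6 genes in that group. The ratio of a single gene's FPKM between groups does not depend on its length. The fold changes with a constant added to the FPKM do depend on it, mostly for genes with low values.

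**Figure D4:**
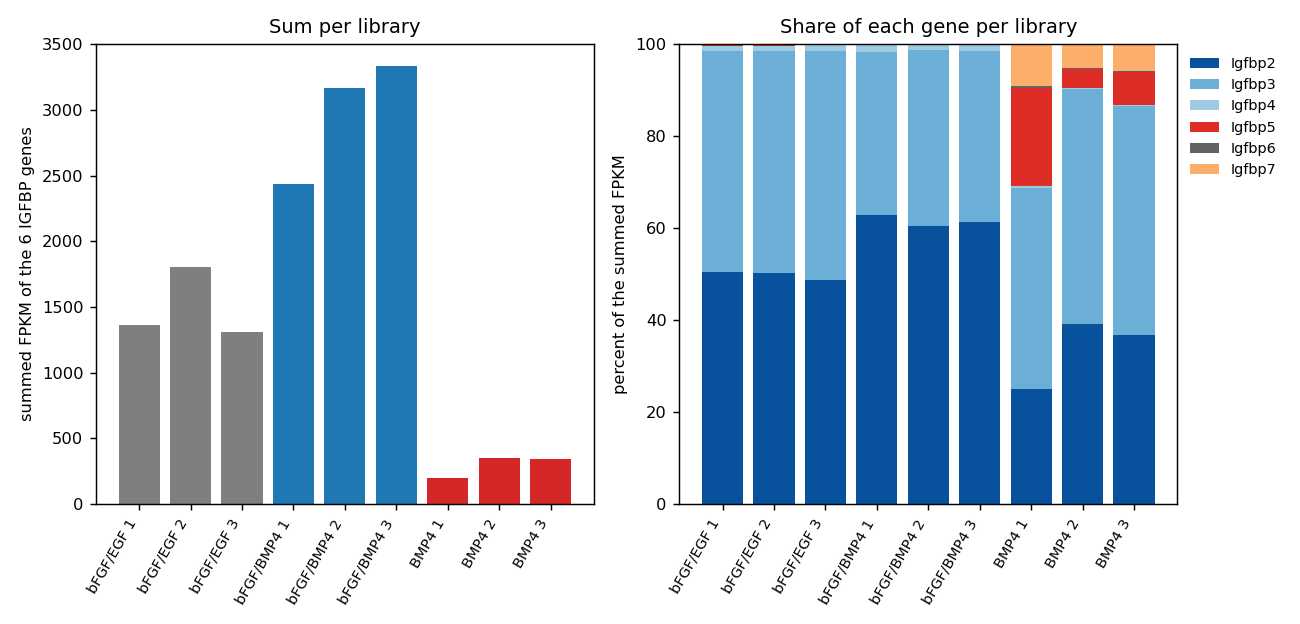
Left, summed FPKM of the 6 IGFBP genes in each library, on a linear axis from 0. Right, the percent of that sum from each gene, with Igfbp6 too small to be seen in most libraries. The BMP4 bars are the shortest (197 to 351), and only there Igfbp5 and Igfbp7 make visible parts.

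Within the BMP4 group, replicate 1 stood apart for several of the genes. It had the lowest Igfbp2 (49.4, against 126 and 137 FPKM), the lowest Igfbp3 (86.0, against 169.7 and 179) and the highest Igfbp5 (42.0, against 14.9 and 24.5). Igfbp5 took 21.3% of the binding-protein FPKM in that library, beside 4.25% and 7.20% in the other BMP4 libraries. The astrocyte markers summed to 4506 FPKM in the same library and to 3935 and 3614 in the others, and the oligodendrocyte progenitor markers to 216 beside 293 and 423. The part of these markers in the spread of the IGF genes was not tested. Without that library, the log2 fold change of Igfbp2 against bFGF/BMP4 was -3.79 and that of Igfbp5 was 2.99.

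A search over 7893 genes, those at 5 or more in mean FPKM, gave those whose pattern over the 9 libraries was most like that of the 3 most abundant of the 9 genes, by the root mean square difference of centred log2 values. For Igfbp2 these were Plpp4 (0.33), Ltbp1 (0.36), which encodes a latent TGF-β binding protein, and Lmo1 (0.59). For Igfbp3 they were Gatm (0.22), the gene of an enzyme of creatine synthesis, Gm49614 (0.27) and again Plpp4 (0.29). For Igfbp4 they were the Notch ligand gene Jag1 (0.55) and Spry1 (0.65) and Etv4 (0.66), both known as targets of FGF signaling. Jag1 had a mean FPKM of 15.3 in the control, 34.1 in bFGF/BMP4- and 0.82 in BMP4-treated NSCs, beside 16.7, 41.6 and 0.59 for Igfbp4. In the same order, Spry1 was at 52.1, 84.2 and 3.02. Etv4 was at 36.9, 36.1 and 0.66, and so was not higher with bFGF/BMP4 than in the control. Among the 9 genes themselves, Igfbp4 and Igf1 were the least alike, at 4.17.

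The wider IGF pathway was described by a list of 98 other genes, of which 85 passed the filter. Tested with limma and adjusted over all genes, 11 were higher and 3 lower in BMP4- than in bFGF/BMP4-treated NSCs (16.5% of the 85), 19 higher and 14 lower in BMP4 against bFGF/EGF (38.8%), and 13 higher and 17 lower in bFGF/BMP4 against bFGF/EGF (35.3%). These shares were near those of all genes given above. Median log2 fold changes of the list were -0.04, 0.14 and 0.05.

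Of the other ligands, receptors and binding proteins, 10 of 16 could be tested, with 2 higher and none lower in BMP4 against bFGF/BMP4, the 2 being Igfbpl1 and Lrp2. These were 20% of the tested genes, beside 13.5% of all genes. In each comparison with the control 2 were higher and 1 lower, or 30%. The shares of all genes were 36.6% with BMP4 and 30.6% with bFGF/BMP4. Lrp2, the endocytic receptor megalin, had an FPKM of 0.28, 0.34 and 0.35 in the control, 0.071, 0.14 and 0.13 with bFGF/BMP4 and 1.69, 1.12 and 1.03 with BMP4. The log2 fold change was 2.68 ± 0.30 against bFGF/BMP4 (limma, adjusted p = 0.00016). Igfbpl1, an IGFBP-like gene, was at 1.36, 1.81 and 1.01 in the control, at most 0.020 with bFGF/BMP4 and 1.08, 1.06 and 0.26 with BMP4. It fell by 3.69 ± 0.46 on the log2 scale in bFGF/BMP4 against bFGF/EGF (limma, adjusted p = 0.000115). Between BMP4 and bFGF/BMP4 its log2 fold change was 2.81 ± 0.46 (limma, adjusted p = 0.00173), and 0.79 and below the threshold with 1 added to the FPKM. Kazald1, another gene of an IGFBP-related protein, was higher in both groups at day 6 than in the control, by 2.06 ± 0.22 with BMP4 and 1.81 ± 0.22 with bFGF/BMP4 (limma, adjusted p = 2.85e-05 and 9.52e-05).

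No other IGF or insulin gene reached the filter. Igf2 had no fragment in the control or bFGF/BMP4 libraries and 13 fragments over the BMP4 libraries. With 3 fragments over the group as the floor, that was 4.47 times the control and 4.08 times bFGF/BMP4. These values leave out the counting error of the 13 fragments. Ins1 had none, Ins2 had 1 and Insrr, the insulin receptor-related receptor, had 7 over all libraries. Igf2r, which takes up IGF2 for degradation, fell by 1.19 ± 0.19 on the log2 scale in BMP4 against bFGF/EGF (limma, adjusted p = 0.000413), and it was no longer past the threshold without BMP4 replicate 2, at -0.98. Also below the filter were Igfbp1, Esm1, Pappa2, Adam28, Mmp7, Enpp1, Ceacam1 and Igf2bp1.

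Proteases that cut binding proteins and their inhibitors were another sub-list: of 16 tested, 5 were higher and 2 lower in BMP4 against bFGF/BMP4, 8 and 3 in BMP4 against bFGF/EGF, and 5 and 5 in bFGF/BMP4 against bFGF/EGF. These were 43.8%, 68.8% and 62.5% of the tested genes of the sub-list, beside 13.5%, 36.6% and 30.6% of all genes. Their median log2 fold changes were 0.41, 0.77 and 0.43. Adam12, a metalloprotease known to cut IGFBP3 and IGFBP5, had an FPKM of 47.2, 42.5 and 43.0 in the control, 39.5, 52.5 and 64.9 with bFGF/BMP4 and 2.49, 2.07 and 2.96 with BMP4. It fell by 4.31 ± 0.19 on the log2 scale in BMP4 against bFGF/BMP4 (limma, adjusted p = 1.18e-06) and had a log2 fold change of -4.10 ± 0.19 against the control (limma, adjusted p = 1.39e-07).

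Htra1, a secreted serine protease that can cut binding proteins, had an FPKM of 26.0, 32.8 and 25.6 in the control, 676, 634 and 633 with bFGF/BMP4 and 73.5, 132 and 119 with BMP4. The log2 fold change was 4.53 ± 0.21 for bFGF/BMP4 against bFGF/EGF (limma, adjusted p = 2.04e-07) and -2.63 ± 0.21 for BMP4 against bFGF/BMP4 (limma, adjusted p = 2.17e-05). The groups were thus in the order bFGF/BMP4, BMP4, control. The metalloprotease inhibitors differed among themselves: Timp2 was at 211 to 256 FPKM with BMP4, 18.4 to 27.1 with bFGF/BMP4 and 38.1 to 54.6 in the control. It was higher by 3.27 ± 0.19 in BMP4 against bFGF/BMP4 (limma, adjusted p = 4.13e-06). Timp3 was higher in both groups at day 6 than in the control, by 3.15 ± 0.25 with BMP4 and 3.16 ± 0.25 with bFGF/BMP4 (limma, adjusted p = 4.18e-06 and 6.29e-06), and Timp1 was lowest with bFGF/BMP4, with a value of -3.58 ± 0.31 against the control (limma, adjusted p = 1.01e-05).

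Among adaptors and brakes at the receptors, 24 of 26 were tested, with 2 higher and 1 lower in BMP4 against bFGF/BMP4, 3 and 6 against the control, and 1 and 6 in bFGF/BMP4 against the control. These shares of 12.5%, 37.5% and 29.2% were close to those of all genes, 13.5%, 36.6% and 30.6%. Grb10, an adaptor that inhibits both receptors, was at 2.12 to 2.30 FPKM in the control, 1.10 to 1.60 with bFGF/BMP4 and 0.13 to 0.41 with BMP4, with a log2 fold change of -2.15 ± 0.30 for BMP4 against bFGF/BMP4 (limma, adjusted p = 0.00069). With 1 added to the FPKM it was no longer past the threshold, at -0.94. Socs2 and Socs3, which encode suppressors of cytokine signaling, were higher by 2.19 ± 0.34 and 2.13 ± 0.26 in BMP4 against bFGF/BMP4 (limma, adjusted p = 0.00125 and 0.000296). Trib3, known as an AKT inhibitor induced by stress, was lower in both groups at day 6 than in the control, at -3.52 ± 0.27 with BMP4 and -3.56 ± 0.27 with bFGF/BMP4 (limma, adjusted p = 3.52e-06 and 4.97e-06). The docking protein genes Irs1 and Irs2 were not past the threshold in any comparison.

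Of 33 PI3K, AKT and mTOR genes, 2 were higher and none lower in BMP4 against bFGF/BMP4, or 6.06% beside 13.5% of all genes. In each comparison with the control 9 of 33 were past the threshold, or 27.3%, beside 36.6% of all genes with BMP4 and 30.6% with bFGF/BMP4. The 2 were Foxo1, which encodes a transcription factor that insulin and IGF signaling holds out of the nucleus, and Foxo6, of the same family. Foxo1 was at 6.92 to 7.53 FPKM with BMP4, 2.53 to 2.99 with bFGF/BMP4 and 2.15 to 2.50 in the control, higher by 1.34 ± 0.14 in BMP4 against bFGF/BMP4 (limma, adjusted p = 9.59e-05). Foxo6 was higher by 1.11 ± 0.30 (limma, adjusted p = 0.0247), and was not past the threshold without bFGF/BMP4 replicate 1 or without BMP4 replicate 1, at 0.87 both times. Pik3ip1, an inhibitor of PI3K, was at 3.05 to 4.19 FPKM in the control and 16.1 to 33.5 in the groups at day 6, and Eif4ebp1, a translation repressor that mTOR switches off, was at 26.9 to 39.02 and 4.43 to 8.45. Against the control, the log2 fold change with BMP4 was 3.14 ± 0.24 for Pik3ip1 and -2.53 ± 0.26 for Eif4ebp1 (limma, adjusted p = 3.06e-06 and 1.99e-05). Of the IGF2 mRNA-binding proteins, Igf2bp2 was lower in both groups at day 6, at -2.97 ± 0.19 with BMP4 and -3.18 ± 0.19 with bFGF/BMP4 (limma, adjusted p = 1.25e-06 and 1.14e-06).

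**Figure D5:**
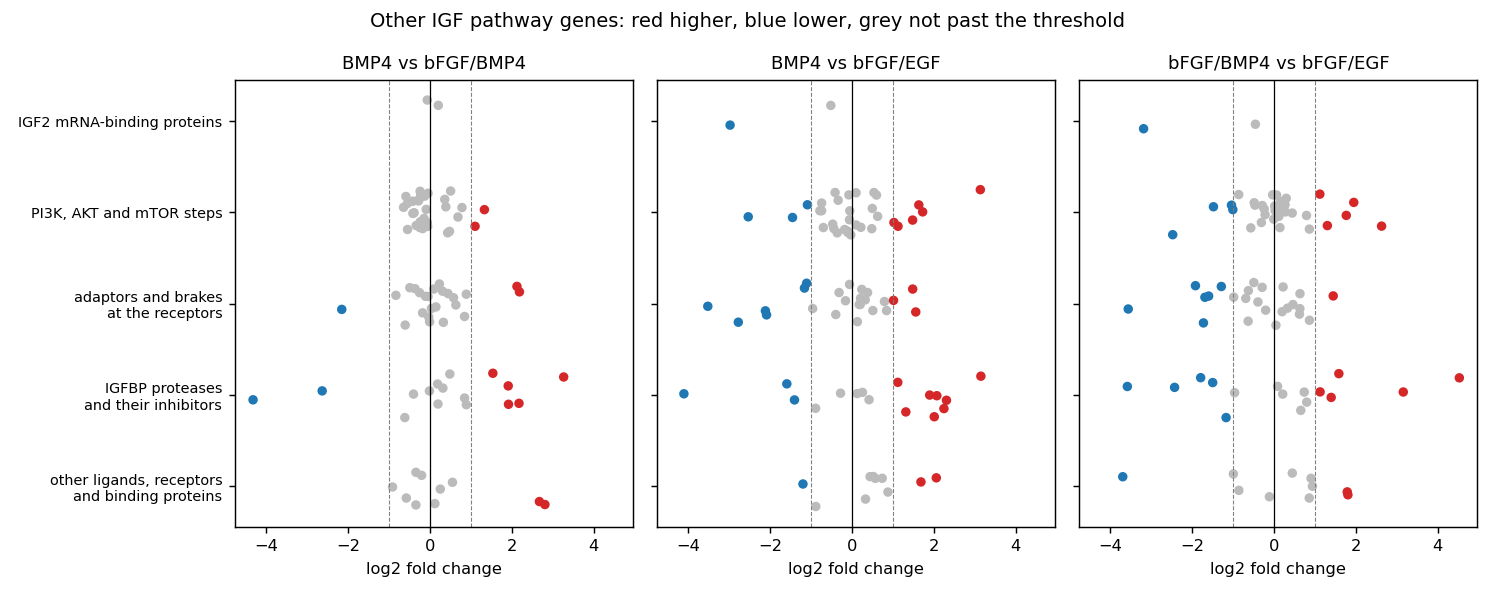
Log2 fold changes of the 85 tested genes of the wider IGF list in the 3 comparisons, 1 point per gene, in rows by sub-list with random vertical scatter. Red points are higher, blue points lower and grey points not past the threshold, with dashed lines at a 2-fold change. BMP4 against bFGF/BMP4 shows 14 coloured points of 85.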

How the data were processed

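RNA was measured in 9 libraries of adult mouse NSCs in 3 groups of 3. The authors deposited FPKM values per gene, and the submitters' processing notes name fastp 0.19.7, HISAT2 2.0.5, the mm39 genome and featureCounts 1.5.0-p3. The annotation release, the program that made the FPKM values and the use of strand in counting are not given in the sources used here. Every FPKM value above 0 could be written as a whole number of fragments (within 0.03) times a constant of the gene and of the library. This gave 30860 genes with fragment numbers. For genes above 0 in only a few libraries such numbers can be found for almost any values, so the match shows little there. Each library had been divided by a number between 0.919 and 1.07 times its own fragments, so the libraries had been scaled by the authors.

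The count model that the study used for differential expression was not run here. From the deposited FPKM values, limma 3.58.1 (R 4.3.3) with a trend was fitted to log2(FPKM + 0.1) of the 20207 genes at 0.1 or more in mean FPKM, in all 9 libraries, with Benjamini-Hochberg adjustment over all of them. The threshold was a difference of 2-fold or more with an adjusted p up to 0.05. The constant of 0.1 makes the fold changes of low genes too small. Descriptions used Python 3.11.15, pandas 2.3.3, numpy 2.4.6, scipy 1.17.1 and matplotlib 3.10.9. Coordinates are from GENCODE vM39 on GRCm39, the build of the files.

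The 9 genes, the wider IGF list and the marker lists were chosen with earlier results of these data known. Besides the 9 genes, those named are the 2 with the largest change past the threshold per sub-list and comparison, genes not detected (at most 3 fragments per library in a group), markers, neighbours and the 3 genes most like each of the 3 most abundant. Igf2r, Irs1 and Irs2 were named after their values were seen. Amino acid sequences were not used here, and of the wider list's genes below the filter, 1 is not reported here.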

Additional observations from a re-analysis of the deposited data

How the results depend on the processing

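Of 483 fold changes of the 9 genes under the alternatives, 464 stayed within the spread of the libraries, none changed from one called direction to the other, and 19 moved, 11 of them with 1 added to the FPKM. Part of the 464 could not move. Another filter, the replicate block or a fit of only the groups compared leaves a fold change the same by construction. So does leaving out a library that is not in the comparison. The 464 therefore overstates how stable the values were. The number of the 9 genes past the threshold between bFGF/BMP4 and bFGF/EGF was 2 with 1 added, in place of 4. With 1 added, 1449 of all genes were past it between BMP4 and bFGF/BMP4, 4364 between BMP4 and bFGF/EGF and 3544 between bFGF/BMP4 and bFGF/EGF. With the adjusted p alone, these were 4271 in the first and 9819 in the last, and the wider list had 29, 53 and 50 genes past it. A mean FPKM of at least 1 left 1800 of all genes between BMP4 and bFGF/BMP4, where fewer genes were tested. Quantile normalization brought the median of all genes between BMP4 and bFGF/EGF from 0.10 to -0.03. Length choices, added after seeing the data, moved the shares of the binding proteins as given above.

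Replicate numbers did not pair the libraries: same-numbered libraries had correlations of their deviations from -0.08 to 0.13. A fit with the replicate number as a block put 7, 8 and 4 of the 9 genes and 14, 32 and 30 of the wider list past the threshold in the 3 comparisons, losing Irs4 between BMP4 and bFGF/EGF. All genes past it were 2612, 7383 and 6127. With 3 libraries a group and at most 3 fragments per control library, the level of Igfbp6 is poorly determined.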

Other observations

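Known targets of FGF/ERK and of BMP/SMAD signaling gave the following values in the same libraries. Of 15 FGF/ERK targets tested with limma, 12 were lower and 1 higher in BMP4- than in bFGF/BMP4-treated NSCs. Of all genes, 5.14% were lower and 8.41% higher there. Dusp5 was the only target with a higher mean FPKM with BMP4 (2.51) than with bFGF/BMP4 (0.85). Against bFGF/EGF, 13 targets were lower with BMP4 and 5 with bFGF/BMP4, beside 15.4% and 14.1% of all genes. The summed FPKM of the 15 targets was 1078 to 1363 in the control, 471 to 680.1 with bFGF/BMP4 and 70.8 to 95.8 with BMP4. The cell cycle gene Ccnd1 made up much of the sum in the control, with a mean FPKM of 523 there, 9.13 with bFGF/BMP4 and 2.91 with BMP4. Spry1 was at 52.1, 84.2 and 3.02, the same order of groups as Igfbp4. It was the only target of the 15 with this order, and all the others had their highest mean FPKM in the control. All 13 BMP/SMAD targets were higher in both groups at day 6 than in the control. Of all genes, 21.3% were higher than the control with BMP4 and 16.5% with bFGF/BMP4. Of the 13 targets, 2 were higher with BMP4 than with bFGF/BMP4, beside 8.41% of all genes. The summed FPKM of the 13 targets was 91.2 to 129, 878 to 1054 and 1143 to 1772. In the comparisons with the control, the growth factors and the time in culture cannot be told apart.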
